A study of Mus musculus with 2 samples.

Results

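S100a8 and S100a9, which encode the subunits of calprotectin, were examined in the liver of apoE-KO mice together with 6 genes of the neutrophil: Csf3r, Mpo, Elane, Ltf, Ngp and Camp. These 8 genes were chosen by name among the 27962 gene names of the arrays, with the diet differences of the same arrays already known, so the differences between the diets in these genes are given as a description and without a test. They are read by 9 of the 41174 probes, 2 of them for Ltf. The question was whether genes that neutrophils use and other cells hardly use were higher together with S100a8 and S100a9. Liver RNA came from male C57BL/6 mice, all of them apoE-KO, that were fed either normal chow or the high-Chol diet (the same chow with 1.25% Chol) for 1 week from 10 weeks of age. Each diet was measured in 3 independent experiments on single-colour Agilent arrays, 1 array each. The sources used here do not say whether an array carried RNA of 1 mouse or of several, and there was no group with an intact Apoe gene.

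Calprotectin is a calcium- and zinc-binding complex of the small proteins S100A8 and S100A9. It is among the most abundant cytosolic proteins of neutrophils, and monocytes and some activated macrophages also make it, so its transcripts mark myeloid cells in general. The granules of a neutrophil are filled in turn while the cell matures in the bone marrow: azurophil granules with myeloperoxidase and serine proteases at the promyelocyte stage, then specific granules with lactoferrin and the cathelicidin precursor, then gelatinase granules. Most granule transcripts are lost before the cell leaves the marrow, whereas S100a8, S100a9 and the receptor for granulocyte colony-stimulating factor are still transcribed in mature cells. The liver holds resident macrophages, the Kupffer cells, and receives neutrophils and monocytes from the blood.

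The values are log2 of the background-subtracted spot signal relative to the 75th percentile of the same array, so 0 is the brightness of that percentile, and each probe is compared only with itself across arrays. The percentile was 271 to 325 signal units on the normal chow arrays, 373 on high-Chol array 1 and 762 to 799 on high-Chol arrays 2 and 3. The 3 normal chow arrays and high-Chol array 1 shared slide 1, whereas high-Chol arrays 2 and 3 were on slide 2 and were read by another version of the extraction software. A fit with slide as a block therefore gives the difference between high-Chol array 1 and the 3 normal chow arrays, called the value within slide 1. From 50.5% of probes on normal chow array 1 to 67.2% on high-Chol array 3 were well above background, the flag of the scanner software for a spot that exceeds its local background. Normal chow array 1 had the lowest share, and its dimmest probe well above background read -3.60, higher than on any other array. The hepatocyte markers Alb, Ttr, Apoa1, Tat, Fgb, Cyp3a11 and Trf were well above background on all 6 arrays. The single Apoe probe read from 1.66 to 3.81 over the 6 arrays, and without a group that carries the intact gene these values check nothing.

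The probes are shown because each value below rests on 1 stretch of 60 bases, and because genes without a measurable signal were read through these letters alone. Positions follow the annotation of the array, on mm7. Which exon or untranslated region a probe lies in was not given in the sources used here. Probes are printed in lower case, whole or by their first 30 bases.
S100a8 probe: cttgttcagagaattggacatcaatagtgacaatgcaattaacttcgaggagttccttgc
S100a9 probe, first 30 bases: ctgcccaaccaagtctaaagggaatggctt
Csf3r probe, first 30 bases: ccaatggtcaccattcgtctttcatataat
Mpo probe, first 30 bases: tagaggttgggagtctgccgggagaaggac
Elane probe (Ela2 on the array): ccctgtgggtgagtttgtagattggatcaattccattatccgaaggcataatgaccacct
Ltf probe 1: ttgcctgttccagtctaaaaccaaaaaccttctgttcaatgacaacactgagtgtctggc
Ltf probe 2: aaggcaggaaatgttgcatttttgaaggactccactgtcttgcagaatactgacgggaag
Ngp probe: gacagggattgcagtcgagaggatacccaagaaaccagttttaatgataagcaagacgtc
Camp probe: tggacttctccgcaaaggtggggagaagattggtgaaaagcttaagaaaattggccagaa
The S100a8 probe lies at chr3:90800058-90800117 (plus strand) and the S100a9 probe at chr3:90822865-90822924 (minus strand), in the same cluster of S100 genes on chromosome 3. The Ltf probes lie at chr9:110738071-110738130 (plus strand) and chr9:110733462-110736512 (plus strand), and the Ngp probe at chr9:110119702-110120250 (plus strand) and Camp probe at chr9:109544107-109544166 (minus strand) are on the same chromosome, 9. The probes for Csf3r at chr4:125488697-125488756 (plus strand), Mpo at chr11:87873508-87874283 (plus strand) and Elane at chr10:79668034-79668093 (plus strand) are on chromosomes 4, 11 and 10. The coordinates of Ltf probe 2, Mpo and Ngp span 3051, 776 and 549 bases, longer than the probe, so these probes join separate blocks of the genome.

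S100a8 and S100a9 were far higher on the high-Chol diet. S100a8 read -3.04, -2.68 and -3.17 on the normal chow arrays, against -0.11, 0.82 and 0.02 on the high-Chol arrays. All 3 high-Chol values lay above all 3 normal chow values, and every reading was well above background. The difference was 3.21 ± 0.28 (SE, n = 3 arrays per diet) on the log2 scale, a 9.23-fold difference. In whole liver RNA, more cells that express a gene and more RNA per cell cannot be told apart, here and for every gene that follows.

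S100a9 read 0.37, 0.51 and 0.40 on normal chow, against 3.25, 3.74 and 2.99 on the high-Chol diet. Here too the diets did not overlap, and the normal chow arrays differed from each other by little (SD 0.07). The difference was 2.90 ± 0.21 (SE, n = 3 per diet), or 7.48-fold. In both genes the highest value was that of high-Chol array 2, and the difference within slide 1 was 2.85 for S100a8 and 2.83 for S100a9, close to that over all arrays. Among 16722 genes that passed the filter on dim probes, S100a8 ranked 22 and S100a9 ranked 37 by the size of the difference upward. A normexp background left S100a9 at 2.62 and took S100a8 down to 1.07. The signal of S100a8 on normal chow was 33.0 to 43.3 units, and the correction adds an offset of 50. The same offset is added on every array before scaling, and the 75th percentile was higher on slide 2. Dim genes are thereby moved down on slide 2, so for them the sign under normexp cannot be read as a diet difference, here and below.

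**Figure D1:**
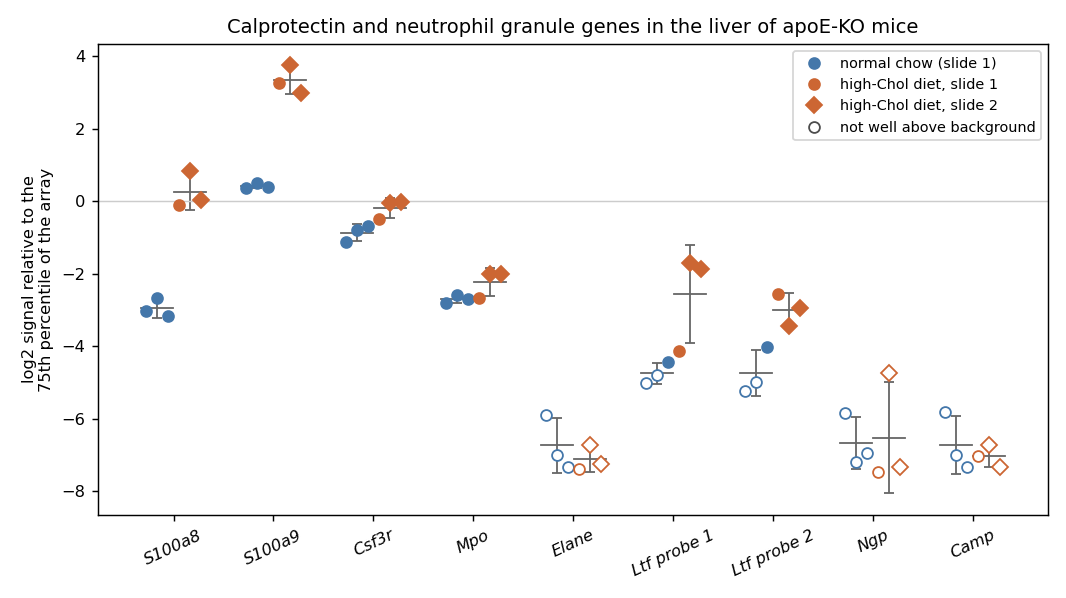
Log2 signal relative to the 75th percentile of the array (vertical axis) for the 9 probes of the 8 genes, 1 symbol per array, with bars for the mean ± SD of 3 arrays per diet. S100a8 (difference 3.21) and S100a9 (2.90) lie far apart between the diets, Csf3r (0.68) and Mpo (0.48) lie close, and Elane, Ngp and Camp have open symbols throughout, which mark readings not well above background.

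The receptor for granulocyte colony-stimulating factor showed a small difference. Csf3r, which carries the main growth and mobilisation signal of neutrophils and is also transcribed in monocytes, read -1.14, -0.81 and -0.68 on normal chow, against -0.50, -0.05 and -0.03 on the high-Chol diet. The diets did not overlap, but high-Chol array 1 was only just above the highest normal chow array. The difference of 0.68 ± 0.20 (SE, n = 3 per diet), or 1.60-fold, became 0.37 within slide 1. It was 0.44 after scaling to the median and 0.30 with a normexp background.

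Of the azurophil granule genes, Mpo was measured on every array and Elane on none. Mpo, which encodes myeloperoxidase, read -2.82, -2.60 and -2.71 on normal chow, against -2.68, -2.00 and -2.01 on the high-Chol diet, well above background on all 6 arrays. High-Chol array 1 lay inside the range of the normal chow arrays, and both higher values came from slide 2. The difference was 0.48 ± 0.22 (SE, n = 3 per diet) over all arrays, 0.03 within slide 1 and of opposite sign, -0.33, with a normexp background.

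Elane encodes neutrophil elastase, a serine protease of the same granules. Its probe was not well above background on any of the 6 arrays. The raw signals were 4.56, 2.16 and 2.02 units on normal chow, against 2.23, 7.60 and 4.99 units on the high-Chol diet. On these arrays the dimmest probe that counted as well above background read from 8.91 to 22.3 units on normal chow and from 10.4 to 35.6 units on the high-Chol diet. No difference can be given for Elane, since only an upper limit was measured on either diet.

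The specific granule genes were dim, and Ltf alone was measured. Ltf encodes lactoferrin, an iron-binding protein that is also made by some glandular epithelia. Probe 1, the brighter probe, read -5.01, -4.80 and -4.45 on normal chow, against -4.13, -1.71 and -1.89 on the high-Chol diet. It was well above background on normal chow array 3 alone of that diet and on all 3 high-Chol arrays, so the size of its difference is uncertain. The difference was 2.18 ± 0.61 (SE, n = 3 per diet), but the high-Chol arrays were far apart (SD 1.35) and the difference within slide 1 was 0.63. With a normexp background it turned to -0.19.

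Ltf probe 2 read -5.23, -5.00 and -4.03 on normal chow, against -2.57, -3.46 and -2.95 on the high-Chol diet, and was well above background on the same arrays as probe 1. Its difference was 1.76, and 2.18 within slide 1, of uncertain size for the same reason. The probes thus shared a direction but not the order of the high-Chol arrays: array 1 was the lowest of the 3 by probe 1 and the highest by probe 2.

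Ngp, which encodes neutrophilic granule protein, and Camp, which encodes the precursor of the cathelicidin peptide, are transcribed at very high levels in maturing neutrophils of the marrow. Neither was well above background on any array. Ngp read 4.69, 1.89 and 2.61 units on normal chow, against 2.09, 29.8 and 4.69 units on the high-Chol diet, where the reading of 29.8 on array 2 stood alone and was still below the detection limit of that array. Camp read 4.77, 2.16 and 2.01 units on normal chow, against 2.87, 7.54 and 4.73 units on the high-Chol diet, with no array apart from the others. Of the 8 genes, 5 therefore passed the filter (every array of 1 diet or of both well above background) and 3 gave only an upper limit.

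All 5 genes that passed were higher on average on the high-Chol diet and 4 of them did not overlap between the diets. Over all genes with a value on every array, 11.9% were without overlap in the same direction. Nothing is read from this comparison, because the genes were chosen from the same arrays and because Ltf passed through the high-Chol arrays alone. With a normexp background 3 of the 5 were higher.

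**Figure D2:**
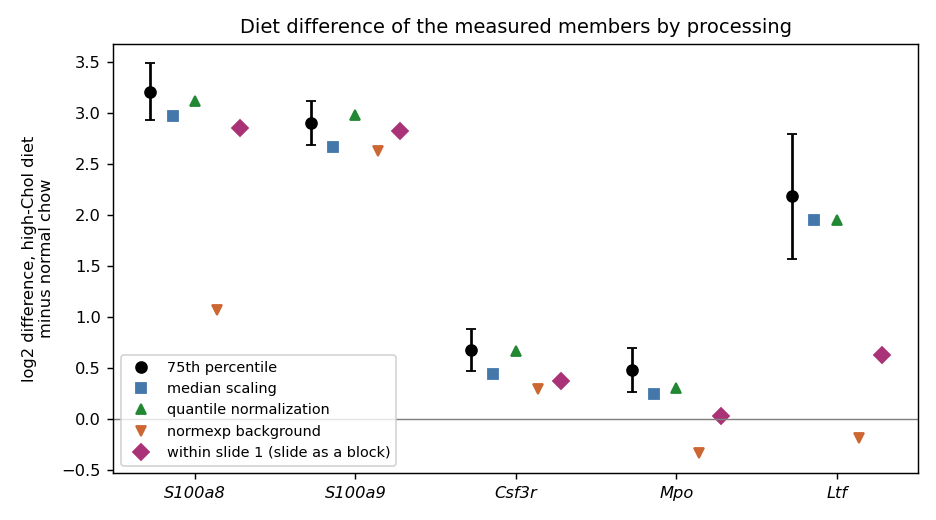
Difference between the diets (high-Chol diet minus normal chow, log2 scale) of the 5 genes that passed the filter, under 4 ways to scale or correct the arrays and within slide 1, with the SE for the 75th percentile scale. S100a9 stays between 2.62 and 2.98 in every setting drawn, S100a8 lies near 3 except with the normexp background, and Mpo and Ltf reach values on the other side of 0.

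Genes of the same cells that had not been used to choose the 8 were then tested, from lists chosen with earlier results of these arrays known. With an adjusted p under 0.05 as the threshold, limma called 2.69% of 16722 genes higher (450 genes) and 0.227% lower (38 genes). By unadjusted p under 0.05 the shares were 12.3% and 8.83%. After scaling to the median the calls were 331 and 73, with the median difference of all genes moved from -0.02 to -0.26. By unadjusted p under 0.05 limma then gave 1461 genes higher and 2841 lower, so that the balance was reversed. The normexp background left 0 calls (267 genes up and 39 down by unadjusted p under 0.05). Without adjustment, 1402 genes were higher and 1387 lower by the methods' t-test, and after adjustment 4 and 1, with 0 in each of the lists. With slide as a block 11 genes were called, all higher, but in that fit the high-Chol diet rests on 1 array, which is assumed to vary like the others.

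Azurophil granule and promyelocyte genes gave 0 calls by limma. Of 10 genes, Cebpe was not matched to a probe, 6 were below the filter and 3 were tested, all of them above background on every array, with 1 higher and 1 lower by unadjusted p under 0.05, against 12.3% and 8.83% of all genes. Prtn3, which encodes proteinase 3, read -2.45, -2.58 and -2.68 on normal chow, against -3.38, -3.59 and -2.80 on the high-Chol diet, lower on each high-Chol array (difference -0.69, limma adjusted p = 0.166). Ctsg, which encodes cathepsin G, had a difference of 0.50 (adjusted p = 0.446) that was -0.40 within slide 1 and -0.17 with a normexp background. Serpinb1a, an inhibitor of these proteases that many cells make, had a difference of 1.11 (adjusted p = 0.154). The genes below the filter were Ms4a3, Prss57, Bpi, Gfi1 and the eosinophil granule genes Prg2 and Epx. Without high-Chol array 1, which leaves the diets on separate slides, 1 gene of the list was called.

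The list of specific and gelatinase granule genes contained more calls. It also holds genes of other kinds, such as Adam8, Padi4, Ltb4r1 and Hdc, which are described below. Of 22 genes, 2 were not matched to a probe, 6 were below the filter and 14 were tested, of which limma called 7 higher, against 2.69% of all genes, and 0 lower. Of the 7, 4 passed the filter through the high-Chol diet. Among the 6 of them that were above background on all 6 arrays, 3 were called, against 2.05% of all such genes. Their median difference was 1.44, beside -0.02 for all genes tested. Lcn2, a siderophore-binding protein of specific granules that hepatocytes also secrete in the acute phase, rose 16.4-fold (difference 4.03 ± 0.34, SE, adjusted p = 0.0053), from -1.51, -2.73 and -1.80 to 1.66, 2.07 and 2.33. Chi3l3, a chitinase-like protein of neutrophils and of alternatively activated macrophages, rose 5.51-fold (adjusted p = 0.035), and Adam8, a membrane metalloproteinase of myeloid cells, rose 4.05-fold (adjusted p = 0.018). The diets did not overlap in any of these genes. Of the tested genes 2 had the opposite sign: Stfa3, of the stefin family, with -0.84 (adjusted p = 0.230), and Ltb4r1, a leukotriene receptor, with -0.16 (adjusted p = 0.631). Hdc, histidine decarboxylase, which is also a mast cell and basophil gene, had a difference of 0.86 (adjusted p = 0.075). Mmp9 (0.36, adjusted p = 0.672), Cd177 (0.55, adjusted p = 0.337), Pglyrp1 (0.92, adjusted p = 0.146) and Stfa1 (1.19, adjusted p = 0.205) were not called either. They passed the filter through the high-Chol diet, so the sizes of their differences are uncertain.

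The other 4 called genes of this list were not well above background on any normal chow array, so that only a lower bound of the change was measured. The adjusted p beside a bound is from limma on the readings as scanned, dim ones included. It does not test the bound, here and for every bound that follows. Chi3l1 was at least 5.75-fold higher (adjusted p = 0.010) and Retnlg, a resistin-like gene of mature neutrophils, at least 3.76-fold higher (adjusted p = 0.016). Stfa2l1, a cystatin of the stefin family, was at least 1.13-fold higher (adjusted p = 0.033), and Padi4, the peptidylarginine deiminase of neutrophil nuclei, at least 1.16-fold higher (adjusted p = 0.0498). The adjusted p of Padi4 was next to the threshold. Its measured difference of 1.77 was the same with the mean of its probes that passed the filter and 1.74 with quantile normalization, although the call was lost under both. The probes of Padi4 that were not used had differences of -0.34 and 1.28. Stefin A genes are near copies of each other, and their probes may share signal. Mmp8, Itgb2l, Olfm4, Fcnb, Mmp25 and Stfa2 did not pass the filter. Olfm4 was well above background on high-Chol array 2 alone. Mmp25, a membrane-bound metalloproteinase, was well above background on 2 normal chow arrays and on no high-Chol array. Its readings overlapped between the diets, and it was not tested.

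In the fit with a slide block 1 of the 7 was called, Chi3l3 (difference 3.47, adjusted p = 0.045), whose highest value was that of high-Chol array 1, the single array of its diet in that comparison. With a normexp background none was called and the median of the list was -0.42, in a setting whose offset lowers dim genes on slide 2. The count was 4, 1 and 2 without normal chow array 1, 2 and 3, and 8, 1 and 3 without high-Chol array 1, 2 and 3.

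Among neutrophil surface and chemotactic receptors, 5 of 11 tested genes were called higher and 0 lower, against 2.69% of all genes higher. The list had 18 genes, with 6 below the filter and Ly6g not matched to a probe. Of the 7 tested genes that were above background on all 6 arrays, 3 were called, against 2.05% of all such genes. These were Cd300lf, an inhibitory receptor of myeloid cells, at 3.14-fold (adjusted p = 0.019), Itgb2, the shared chain of the leukocyte integrins, at 2.35-fold (adjusted p = 0.013), and Fcgr3, an Fc receptor that macrophages also carry, at 2.06-fold (adjusted p = 0.034). The second Fcgr3 probe, also above background throughout, had a difference of 0.26 only. Clec4d, a lectin of neutrophils and inflammatory macrophages, read -5.27, -4.57 and -4.41 on normal chow, where it was well above background on 1 array, and -1.25, -0.57 and -1.22 on the high-Chol diet (difference 3.74 ± 0.29, SE, adjusted p = 0.0045). It passed the filter through the high-Chol diet, so the size of its difference is uncertain. Trem3 was at least 1.41-fold higher (adjusted p = 0.028).

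The receptors that define circulating neutrophils were mostly not measured. The interleukin-8 receptors Cxcr2 and Cxcr1, the complement receptor C5ar1, the integrin chain Itgam and Slfn4 and Mrgpra2a were below the filter. Cxcr2 was well above background on 1 array, of the high-Chol diet. Fpr1, the formyl peptide receptor, read 0.26, 0.32 and -0.05 on normal chow, against -0.30, 0.23 and 0.30 on the high-Chol diet. The diets overlapped, with a difference of -0.10 (adjusted p = 0.796). Fpr2, another formyl peptide receptor, had a difference of 1.02 (adjusted p = 0.065). None of the list was called with slide as a block or with a normexp background. The count was 3, 1 and 1 without normal chow array 1, 2 and 3, and 8, 1 and 2 without high-Chol array 1, 2 and 3.

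**Figure D3:**
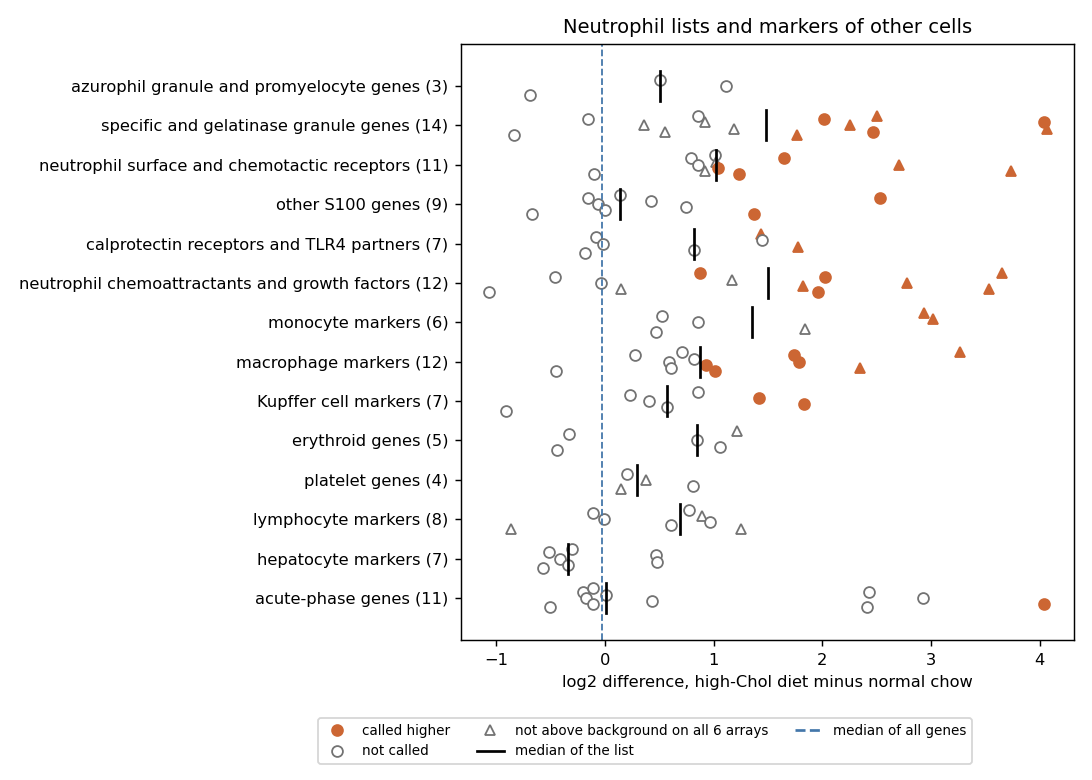
Difference between the diets (horizontal axis, log2 scale) of each tested gene of 14 lists, with the number tested after each name. Filled symbols mark genes that limma called, triangles mark genes not above background on all 6 arrays, black bars the list medians and the dashed line the median of all genes, -0.02; the azurophil list holds no filled symbol, the specific granule list 7 and the receptor list 5.

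The other S100 genes differed among themselves. S100 proteins are small calcium-binding dimers, most of them encoded in the same cluster as S100a8 and S100a9. Of 15 further genes, 9 were tested, all of them above background on all 6 arrays, and 2 were called higher, against 2.05% of all such genes. S100a4, found in macrophages, lymphocytes and fibroblasts, read -0.99, -0.73 and -0.90 on normal chow, against 1.72, 2.04 and 1.22 on the high-Chol diet (5.79-fold, adjusted p = 0.0060). S100a6, a gene of many dividing and mesenchymal cells, was 2.58-fold higher (adjusted p = 0.018). The genes with the highest signal on this platform had overlapping diets or small differences: 0.42 for S100a10 (adjusted p = 0.479), -0.06 for S100a13 (adjusted p = 0.865) and -0.15 for S100a1 (adjusted p = 0.638). S100a5 was lower on each high-Chol array (difference -0.67, adjusted p = 0.133). The median of the list was 0.14. With slide as a block the differences of S100a4 and S100a6 were 2.59 and 1.32, with adjusted p of 0.083 and 0.188. The count of 2 fell to 1 without any 1 of the normal chow arrays and without high-Chol array 2.

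Calprotectin outside the cell binds Toll-like receptor 4 and other receptors. Of 8 genes for these receptors and their partners, 7 were tested and 2 were called higher, against 2.69% of all genes. Of the 5 genes above background on all 6 arrays none was called, and their median difference was -0.02. Tlr4 had a difference of 1.44 (adjusted p = 0.044) and Emb, which encodes embigin, of 1.78 (adjusted p = 0.039), each of them above background on only 2 normal chow arrays, so that both passed the filter through the high-Chol diet. A further probe for each of the genes was not well above background on any array, and the remaining Emb probe had a difference of 2.82. The brighter genes of the list included Bsg, encoding basigin (difference -0.18, adjusted p = 0.554), Myd88, the adaptor of Toll-like receptors (-0.02, adjusted p = 0.966), and the scavenger receptor gene Cd36 (1.44, adjusted p = 0.160). Ager, the receptor for advanced glycation end products, was below the filter. The count was 0, 0 and 1 without normal chow array 1, 2 and 3, 4, 0 and 0 without high-Chol array 1, 2 and 3, and 0 with slide as a block.

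Chemoattractants and growth factors of neutrophils were called higher in 7 of 12 tested genes, out of 16, against 2.69% of all genes. Of the 6 above background on all 6 arrays 3 were called, against 2.05%, with a median difference of 0.42. Cxcl1, a ligand of the interleukin-8 receptor, read -0.61, -0.08 and 0.20 on normal chow, against 2.23, 1.78 and 1.38 on the high-Chol diet (3.89-fold, adjusted p = 0.020). Cxcl5 and Cxcl2, ligands of the same receptor, were at least 3.73-fold and at least 2.40-fold higher (adjusted p = 0.038 and 0.022), being not well above background on normal chow. Tnf, also not well above background on normal chow, was at least 3.74-fold higher (adjusted p = 0.0025). Its difference with slide as a block, from 1 high-Chol array, was 2.59 and of uncertain size, since the normal chow readings were dim. Il1b was 4.07-fold (adjusted p = 0.020) and Alox5ap, needed for leukotriene synthesis, 1.84-fold higher (adjusted p = 0.043). Il1a, measured as 3.54-fold higher (adjusted p = 0.024), was above background on only 2 normal chow arrays and passed the filter through the high-Chol diet, so that the size of its change is uncertain. Lta4h, a later enzyme of that pathway, had a difference of -0.04 (adjusted p = 0.912). Cxcl15, a chemokine best known from lung, was lower on each high-Chol array (difference -1.07, adjusted p = 0.148). Alox5, the lipoxygenase that acts with Alox5ap, had a difference of -0.45 (adjusted p = 0.334), but 0.96 and 1.47 by its other probes. Csf3 and Csf2, the growth factors of granulocytes, and Il17a and Cxcl3 were below the filter. The count was 3, 1 and 3 without normal chow array 1, 2 and 3, and 8, 1 and 2 without high-Chol array 1, 2 and 3.

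Some markers of macrophages, Kupffer cells and monocytes were higher together with S100a8 and S100a9, and their part in the result was not tested. The summed signal of a list is given as a multiple of the 75th percentile of the array. Of 12 macrophage markers all were tested and 6 were called higher, against 2.69% of all genes, and 4 of the 10 above background on all 6 arrays, against 2.05%. Among the called genes were Lyz2 (difference 1.78, adjusted p = 0.013) and Cd68 (1.74, adjusted p = 0.0060). Itgax (3.27, adjusted p = 0.0060) and Ms4a7 (2.35, adjusted p = 0.026) were above background on only 2 normal chow arrays and passed the filter through the high-Chol diet, so the sizes of their differences are uncertain. The second probe of Itgax had a difference of 0.27. The sum over the 11 with a value on every array ranged from 111 to 127 on normal chow and from 230 to 340 on the high-Chol diet. Over the 5 of these that were not called it was 28.4 to 30.7 against 28.8 to 36.8, so that the diets overlapped. Of 7 Kupffer cell markers, all above background on all 6 arrays, 2 were called higher, against 2.05%, Marco (1.83, adjusted p = 0.035) and Cd5l (1.42, adjusted p = 0.012). The sum of the list was 106 to 118 on normal chow against 242 to 282 on the high-Chol diet. Without these 2 genes it was 26.6 to 34.9 against 37.2 to 40.7. Clec4f, which is particular to Kupffer cells, had a difference of 0.41 (adjusted p = 0.240), Folr2 of 0.24 (adjusted p = 0.431) and Cd163 of -0.91 (adjusted p = 0.154), with Cd163 lower on each high-Chol array. With slide as a block 0 macrophage, 0 Kupffer cell and 0 monocyte markers were called, with 9, 4 and 4 higher by unadjusted p under 0.05, against 5.65% of all genes higher and 3.46% lower in that fit. The macrophage count was 3, 2 and 2 without normal chow array 1, 2 and 3, and 7, 2 and 2 without high-Chol array 1, 2 and 3. The Kupffer cell count was 1, 1 and 0, and 3, 0 and 0, in the same order.

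Of 9 monocyte markers, 6 were tested and 2 called higher, against 2.69% of all genes. Both passed the filter through the high-Chol diet, and of the 3 genes above background on all 6 arrays none was called. Ccr2, the chemokine receptor of inflammatory monocytes, read -5.31, -4.76 and -4.19 on normal chow, against -2.29, -1.56 and -1.34 on the high-Chol diet (difference 3.02, adjusted p = 0.0094). It was well above background on normal chow array 3 alone of that diet, so the size of its difference is uncertain. F13a1 was at least 3.40-fold higher (adjusted p = 0.026). The sum of the list was 7.17 to 9.39 on normal chow, against 11.4 to 12.3 on the high-Chol diet. Most of it came from the 4 genes not called, with 7.12 to 9.34 against 10.9 to 11.9. Fcnb and Vcan were below the filter. The count of 2 became 2, 0 and 2 without normal chow array 1, 2 and 3, and 4, 0 and 1 without high-Chol array 1, 2 and 3.

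Erythroid, platelet, lymphocyte and hepatocyte lists gave 0 calls by limma. At an unadjusted p under 0.05 limma gave 1 higher of 5 erythroid genes, 0 of 4 platelet genes, 3 of 8 lymphocyte genes and 1 of 7 hepatocyte genes, with 2 hepatocyte genes lower, against 12.3% of all genes higher and 8.83% lower. The erythroid sum was 47.6 to 95.8 on normal chow, against 76.3 to 122 on the high-Chol diet, the platelet sum 0.47 to 1.23 and 0.71 to 1.15, and the lymphocyte sum 1.03 to 1.32 and 1.27 to 2.04, so that the diets overlapped in each. The hepatocyte sum was 2489 to 2766 against 1970 to 2378. Ahsp of the erythroid list and Itga2b, Gp9, Gp5 and Gp6 of the platelet list were below the filter.

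Of 11 acute-phase genes, all above background on all 6 arrays, 1 was called, against 2.05% of all such genes. It was Lcn2, which is also in the specific granule list. The count was 4 without normal chow array 1, 3 without high-Chol array 1, 2 with median scaling and 0 with slide as a block, by which 2 were higher at unadjusted p under 0.05, against 5.65% of all genes. Saa3, the serum amyloid A that macrophages and hepatocytes make, read 4.81, 2.90 and 2.58 on normal chow, against 5.80, 6.54 and 6.73 on the high-Chol diet (difference 2.93, adjusted p = 0.0504). Saa1 and Saa2 had differences of 2.43 and 2.41 (adjusted p = 0.100 and 0.129), with normal chow array 1 the highest of its group for all 3 genes. Hp and Orm1 had differences of -0.20 and -0.17 (adjusted p = 0.433 and 0.506). The median of the list was 0.01.

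The genes whose values were most like those of S100a8 and S100a9 were found by the root mean square difference of log2 signals over the 6 arrays, after each gene was centred on its own mean, among 12008 named genes above background on all arrays. With 6 arrays that fall into 2 diets these values describe likeness and carry no test. For S100a8 the nearest gene of all was S100a9, at 0.23 (Pearson's r 0.995). It was followed by Lgals3, encoding galectin-3 of macrophages, at 0.27 (r 0.988), Slpi, an inhibitor of leukocyte proteases, at 0.28 (r 0.996), Gpr137b and Clec7a, the beta-glucan receptor dectin-1, each at 0.35 (r 0.989 and 0.977). For S100a9 the order was Slpi at 0.13 (r 0.997), S100a4 at 0.20 (r 0.998), Lgals3 at 0.23 (r 0.988), S100a8 and then Plaur, the urokinase receptor, at 0.25 (r 0.989). Ltf, Ngp, Camp and Elane were not above background on all arrays and could not enter this comparison.

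Slpi read -2.27, -2.22 and -2.20 on normal chow, against 0.24, 0.98 and 0.30 on the high-Chol diet. Lgals3 read 0.58, 0.68 and 0.96 on normal chow, against 3.30, 4.17 and 3.70 on the high-Chol diet. Both had their highest value on high-Chol array 2, as S100a8 and S100a9 did, which the choice by likeness over the same arrays favours.

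**Figure D4:**
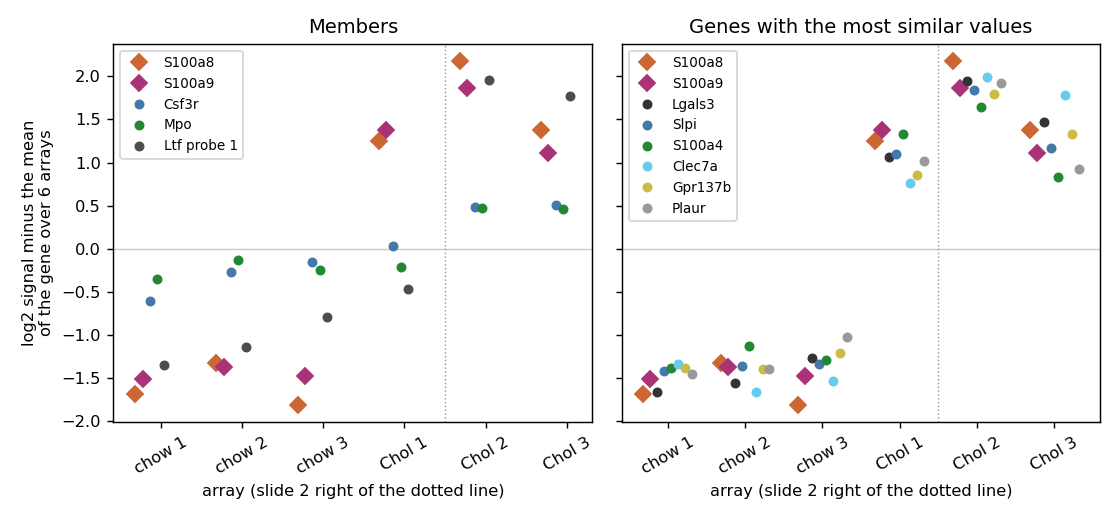
Log2 signal of each gene minus its mean over the 6 arrays (vertical axis), by array. Left, the 5 genes of the group that passed the filter. There S100a8 and S100a9 jump at high-Chol array 1, while Csf3r, Mpo and Ltf probe 1 are higher mainly on slide 2. Right, the genes with the most similar values, at 0.13 to 0.35 (root mean square, log2) from S100a8 or S100a9.

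The promoters of S100a8 and S100a9 are shown since both genes moved together and are read from separate starts. The 250 bases before each RefSeq start are given on GRCm38.p6, 5′ to 3′ along the gene, at chr3:90668821-90669070 (plus strand) and chr3:90695722-90695971 (minus strand). Capitals mark the C/EBP core TTNNGNAA, the PU.1 core GAGGAA and the TATA element TATAAA, each searched on both strands. C/EBP and PU.1 factors act in myeloid cells.
S100a8 promoter: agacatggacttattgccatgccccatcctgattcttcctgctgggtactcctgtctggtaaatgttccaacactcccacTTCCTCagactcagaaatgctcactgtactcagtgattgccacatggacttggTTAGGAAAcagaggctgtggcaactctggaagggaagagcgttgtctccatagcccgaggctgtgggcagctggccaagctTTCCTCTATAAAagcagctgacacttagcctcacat
S100a9 promoter: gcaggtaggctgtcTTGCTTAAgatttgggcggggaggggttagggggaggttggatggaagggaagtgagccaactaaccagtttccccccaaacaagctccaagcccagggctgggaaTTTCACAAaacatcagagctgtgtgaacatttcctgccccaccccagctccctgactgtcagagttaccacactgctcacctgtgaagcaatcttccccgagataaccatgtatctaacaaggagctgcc
The S100a8 window held 1 C/EBP core, 2 PU.1 cores and 1 TATA element, the last directly after a PU.1 core so that their capitals run together. The S100a9 window held 2 C/EBP cores and none of the other letters. Among the 8 genes, 4 held the C/EBP core (S100a8, S100a9, Ngp and Ltf), 5 the PU.1 core and 1 the TATA element. In 32841 promoters of the same length these shares were 36.9%, 23.3% and 12.4%. Such matches are common in any window of this length and describe letters only.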

How the data were processed

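Liver RNA of 3 experiments per diet was hybridised to single-colour arrays. The authors deposited 1 scanner text per array. In it Agilent Feature Extraction had subtracted the background from each spot intensity (9.5 on slide 1 and 9.1 on slide 2, per the file headers; the submitters' processing notes name 9.1). The deposited log2 values, with 1 value a diet for 23458 probes, held differences that followed the scanner values scaled to the median (slope 1.00, Pearson's r 0.994 across probes, offset -0.0063); column medians were -0.0019 and -0.273, and normalization settings were not given in the sources used here. Other scanner columns that the authors deposited, flags for background, saturation and outliers, were used as such.

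The log2 signal was set against the 75th percentile over the non-control spots of its array, without outlier spots. A gene passed when every array of 1 diet or of both was well above background, through the probe of the highest mean. The package limma 3.58.1 (R 4.3.3; lmFit and eBayes without covariates, Benjamini-Hochberg adjusted p under 0.05) tested high-Chol diet against normal chow. On simulated data with 16430 genes, 29 of 107 genes changed by 2-fold and 69 of 93 changed by 4-fold were called, with 3 false calls. The simulated noise was independent between arrays and held no slide effect, so these counts do not cover errors that come from the slides. The small number of arrays limits precision, and p-values measure the spread between these arrays. Lower bounds set the mean of the bright diet against, per array of the dim diet, the higher of the lowest signal well above background and the reading of the probe itself, on the normalized log2 scale.

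The 8 genes and the lists were chosen with earlier results of these data known. Named genes are the 8, in each list up to 4 called genes of largest difference, the 3 of highest signal and members a result needed, and 5 genes nearest to S100a8 and to S100a9. Alternatives were a normexp background (offset 50), median and quantile scaling, other filters, the mean of the probes of a gene, a slide block, leaving out each array, the methods' t-test and the authors' values. Of the probes, 22951 matched the RefSeq genes (GRCm38.p6, names only) by accession. Promoters are from RefSeq, all 8 genes matched. Python 3.11.15, pandas 2.3.3, numpy 2.4.6, data.table (1.17.8) and matplotlib 3.10.9 were used. Some single genes of the lists are not reported here.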

Additional observations from a re-analysis of the deposited data

How the results depend on the processing

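The differences of S100a8 (1.07 to 3.38) and S100a9 (2.62 to 3.07) kept their direction in all alternatives run, as did that of Csf3r (0.30 to 0.83). A normexp background reversed Ltf (-0.19) and Mpo (-0.33) and left 3 genes higher. Its offset lowers dim genes on slide 2, so these signs cannot be read as diet differences. The total of 488 called genes became 0 with normexp, 26 without a filter, 11 with slide as a block, 5 by the methods' t-test and 42 to 3074 when single arrays were left out, the last without high-Chol array 1, when diet and slide cannot be told apart. Azurophil calls were 0 to 1 over the left-out arrays. Specific granule calls (7) were 0 with normexp and the t-test, 1 without a filter and with slide as a block, 3 when all 6 arrays had to be above background and 1 to 8 with an array left out. Receptor calls (5) were 0 with normexp, the block and the t-test, 1 without a filter, 3 with all 6 arrays and 1 to 8 with an array left out. The 22 calls of the other lists were 0 with normexp and the t-test, 3 without a filter, 13 with all 6 arrays, 1 with the block and 5 to 38 with an array left out. The causes were not tested. The authors' table holds no replicates and gave differences of 2.96 for S100a8 and 2.66 for S100a9. Genes near background had no measurable level, which limits Elane, Ngp and Camp.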
